A study of Mus musculus with 8 samples.

Results

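Interferon response genes were followed as a group of 32 members, taken as a fixed list of genes known to be induced by interferon: 28 antiviral and regulatory genes plus Ifitm1, Ifitm2, Ifitm3 and Ly6e. All 32 were among the 32285 genes counted. Their raw UMI counts (counts of distinct mRNA molecules) were read in 6 droplet libraries of mouse blood-forming cells, keeping cells of 2000 UMIs or more and 1000 detected genes or more whose mitochondrial share did not exceed 10%. Per the labels every library was sorted for Epcr+Lin-Sca-1+Kit+ cells, a gate that enriches for hematopoietic stem cells. At postnatal day 2 (P2), 7 wild-type (WT) mice were merged, and their bone marrow, spleen and liver gave 1 library each. These 3 libraries are called the pool here and hold the same mixed animals. A WT library of about embryonic day 19 (E19) was titled bone marrow and labelled fetal liver in its tissue field. Another 2 libraries came from 2 pups at P2 of genotype Tppp3CreER LSLTdTomato given tamoxifen at P0, in which Cre from the Tppp3 locus switches on tdTomato. Bone marrow and spleen cells of each pup carried separate hashtags, and the tdTomato-positive cells of 1 pup shared a tube with the tdTomato-negative cells of the other. The pool, E19 and the pups were batches 1, 2 and 3, so age, genotype and batch cannot be told apart between them. Since the labels of E19 name different tissues, tissue cannot be told apart from age there either.

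Type I interferons bind Ifnar1 and Ifnar2 and, through the kinases Jak1 and Tyk2, activate a complex that includes Stat2 and Irf9 and binds the interferon-stimulated response element (ISRE) in target promoters. The target genes encode proteins that sense foreign nucleic acid, block viral entry, translation or release, or limit the signal itself. Blood-forming stem cells are known to hold part of this programme at a basal level without infection, and interferon can drive quiescent stem cells into division. Sca-1, encoded by Ly6a, is itself induced by interferon, and was part of the sort.

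The promoters were read to show what the members have in common in sequence. RefSeq promoter windows (GRCm38.p6, 250 bases before to 50 after a start) matched 25 of the 32 members by symbol. The ISRE core, 2 copies of GAAA with 2 bases between them on either strand, lay in the windows of 16 of these 25 members. Counted by window, it lay in 17 of their 30 windows (56.7%) and in 3.44% of all 32851 windows. The 150 bases before the start are printed for 6 members that were higher in stem-gated than in B-gated cells. ISRE cores are in capitals and each sequence is written along the gene's own strand. They show an overlapping run (Isg15, chr4:156200819-156200968, minus strand; Oas1a, chr5:120907526-120907675, minus), spaced copies (Ifit1, chr19:34640739-34640888, plus), single copies (Rsad2, chr12:26456453-26456602, minus; Ifitm2, chr7:140955962-140956111, minus) and no copy (Ifitm1, chr7:140967926-140968075, plus).
Isg15: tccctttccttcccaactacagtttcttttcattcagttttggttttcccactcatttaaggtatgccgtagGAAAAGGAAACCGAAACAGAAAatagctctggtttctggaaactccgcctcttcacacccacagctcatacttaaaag
Ifit1: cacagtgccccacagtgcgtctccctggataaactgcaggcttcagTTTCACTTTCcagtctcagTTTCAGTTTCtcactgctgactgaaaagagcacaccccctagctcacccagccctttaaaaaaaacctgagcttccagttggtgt
Rsad2: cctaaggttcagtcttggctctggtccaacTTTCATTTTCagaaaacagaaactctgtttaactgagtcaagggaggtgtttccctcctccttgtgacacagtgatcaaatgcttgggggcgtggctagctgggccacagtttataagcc
Oas1a: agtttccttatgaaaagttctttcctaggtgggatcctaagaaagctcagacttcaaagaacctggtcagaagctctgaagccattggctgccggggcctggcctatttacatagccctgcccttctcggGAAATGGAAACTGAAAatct
Ifitm2: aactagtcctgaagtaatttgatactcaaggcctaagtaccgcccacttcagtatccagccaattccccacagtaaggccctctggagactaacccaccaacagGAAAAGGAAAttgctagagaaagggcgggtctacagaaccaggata
Ifitm1: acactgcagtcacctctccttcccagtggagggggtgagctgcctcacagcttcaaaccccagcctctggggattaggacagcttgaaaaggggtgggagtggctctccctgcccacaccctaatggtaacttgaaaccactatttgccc
In Isg15 the cores begin 78, 72 and 66 bases before the start, and in Oas1a 20 and 14 bases before it. In Ifit1 they begin 104 and 85 bases before the start, in Rsad2 120 and in Ifitm2 46. A match is a description of these letters only. The Ifitm1 window lies inside the gene as placed by GENCODE vM21, which begins at 140967221. Bases before that start were not searched. The 4 IFIT members lie together on chromosome 19 between 34550694 and 34650009 (GRCm38, GENCODE vM21). Ifitm1, Ifitm2 and Ifitm3 lie on chromosome 7 between 140954837 and 141010770, and Gbp2, Gbp3 and Gbp7 on chromosome 3 between 142530342 and 142638008. Near-identical copies such as Ifit3 and Ifit3b can lose reads that fit both, so their values are uncertain.

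Cells were put into classes by marker lists, and a cell that met 2 lists was in neither. A stem-gated cell had UMIs of at least 3 of Mecom, Hlf, Mllt3, Procr, Pdzk1ip1, Fgd5, Gcnt2 and Rbpms and at least 500 of every 1000000 UMIs on that list. Stem-gated cells were 30.4% of kept cells in pool bone marrow, 23.0% in pool spleen, 4.14% in pool liver and 85.1% at E19. The pool also held 4114 B-gated, 3088 erythroid-gated and 2361 myeloid progenitor-gated cells, although the label gives a lineage-negative sort. Between 45.5% and 98.6% of tdTomato-negative cells of the pups were stem-gated. Counts were summed over the stem-gated cells of each source and tissue, which gave 8 sums: 1837, 1902 and 220 cells in pool bone marrow, spleen and liver, 8264 at E19, and 100, 1160, 1315 and 762 tdTomato-negative cells in bone marrow and spleen of pup 1 and of pup 2. Median depth in these cells was 6084 UMIs at E19, 6141 to 8332 in the pool and 19306 to 24389 in the pups. Levels are CPM, the UMIs of a gene scaled to 1000000 UMIs of its sum. The pool and E19 libraries shared 16 to 34 barcodes by pair, at most 0.38% of the smaller, and the tubes shared 3.

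In the P2 pool the members were highest in different cell classes (map of members by class). Of the 32 members, 9 were highest in stem-gated cells, 9 in T and NK-gated, 7 in dendritic-gated, 3 each in B-gated and monocyte-gated and 1 in erythroid-gated cells. At E19, where only 4 classes had 20 or more cells, 24 were highest in stem-gated, 4 in B-gated and 2 each in erythroid-gated and myeloid progenitor-gated cells. The same count was not made over all genes, so whether the members differ from other genes in this is not known. Some places are near ties or rest on very few UMIs. In the pool Ifit2 stood at 18.2 in T and NK-gated and 18.0 in stem-gated cells. At E19 Zbp1 was highest in myeloid progenitor-gated cells at only 1.82 CPM. The IFITM genes, which encode membrane proteins that block viral entry, were the highest of all in stem-gated cells. Ifitm1 stood at 1062 CPM in stem-gated, 392 in myeloid progenitor-gated, 171 in monocyte-gated and 16.0 in B-gated cells. Ifitm2 lay closer, at 550 in stem-gated and 480 in myeloid progenitor-gated cells. At E19 Ifitm2 was highest in the 45 myeloid progenitor-gated cells, at 491 against 463 in stem-gated cells. Ifitm3 stood at 621 in stem-gated cells, 505 in monocyte-gated, 235 in myeloid progenitor-gated and 23.0 in B-gated cells. Ly6e, a lipid-anchored surface protein, had the opposite order, with 849 in dendritic-gated, 706 in monocyte-gated, 683 in B-gated and 183 in stem-gated cells. Irf7, a factor that amplifies the interferon loop, stood at 95.3 in dendritic-gated, 54.0 in monocyte-gated, 13.6 in stem-gated and 1.32 in myeloid progenitor-gated cells. Trim30a, a ubiquitin ligase of the TRIM family, stood at 309 in dendritic-gated and 66.2 in stem-gated cells. Zbp1, a sensor of Z-form nucleic acid, stood at 50.6 in T and NK-gated and 1.52 in stem-gated cells. The dendritic-gated and monocyte-gated sums rest on 149 and 260 cells and the T and NK-gated sum on 511, from 1 pool, so these orders carry no test. Erythroid-gated, myeloid progenitor-gated and B-gated cells held low levels of Ifit1 (0.406, 0.580 and 1.02 against 10.5 in stem-gated cells). The same held for Oasl2 (0.982, 2.46 and 1.80 against 30.1). Rsad2 did not follow, with 10.1 in erythroid-gated and 9.64 in stem-gated cells.

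**Figure D1:**
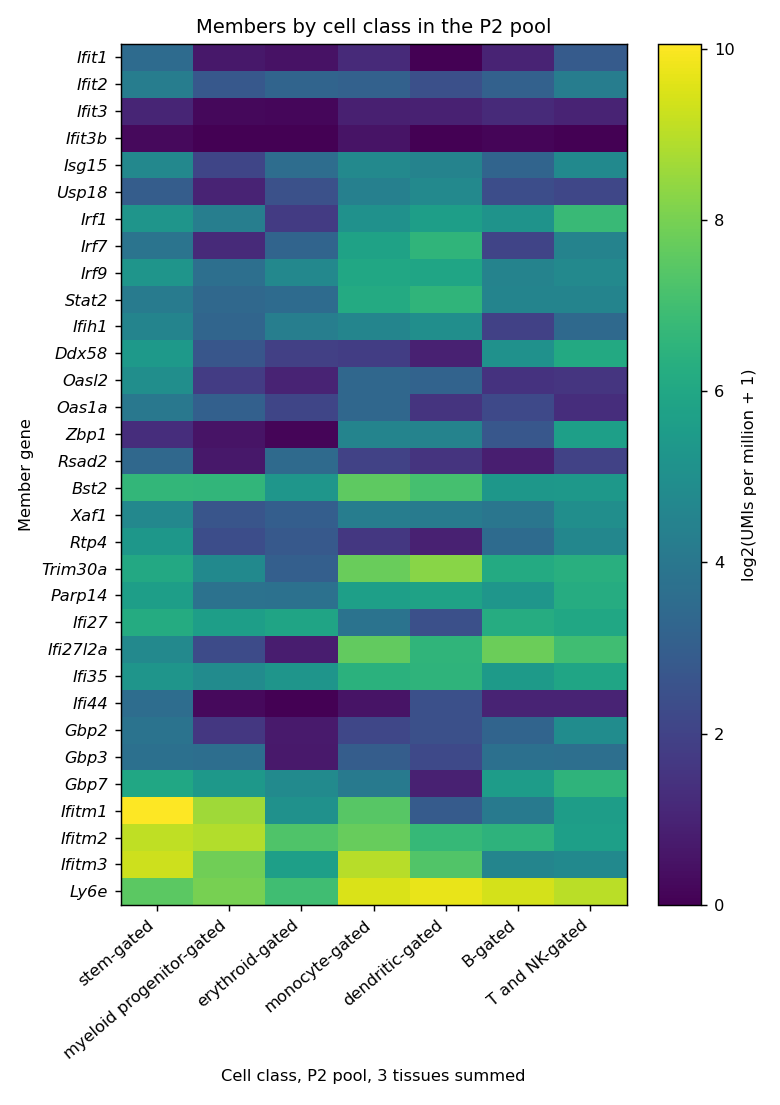
Level of each member (rows) in 7 cell classes (columns) of the P2 pool with its 3 tissues summed, coloured by log2(CPM + 1). Ifitm1, Ifitm2 and Ifitm3 are brightest in the stem-gated column, and Ly6e in the dendritic-gated, monocyte-gated, B-gated and T and NK-gated columns.

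Stem-gated cells were then tested against B-gated cells of the same source (pool, E19 and tdTomato-negative cells of pup 1). This comparison was chosen after the data were seen, because only 2 sources had 20 or more myeloid progenitor-gated cells. Of 31 members tested, 16 were higher and 2 lower in stem-gated cells (edgeR quasi-likelihood test with source as a block, Benjamini-Hochberg adjusted p under 0.05). Over all 14672 genes tested, 16.7% were called higher and 8.72% lower. The median log2 fold change was 0.88 over the members and 0.07 over all genes. The B-gated sums held 20509237, 1087037 and 542270 UMIs, so single members rest on few UMIs at E19 and in pup 1. The sources do not share animals, and p-values measure the spread between these 3 sources. B cells lie outside the Lin- sort, so those seen here passed it.

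Among entry-blocking genes, Ifitm1 stood at 1062, 1032 and 604 CPM in stem-gated cells of the pool, E19 and pup 1, against 16.0, 13.8 and 9.22 in B-gated cells (log2 fold change 5.94 ± 0.19 SE, edgeR adjusted p = 8.1e-07). Ifitm3 stood at 621, 510 and 438 against 23.0, 23.0 and 11.1 (4.60 ± 0.21, adjusted p = 3.4e-06). Ifitm2 stood at 550, 463 and 451 against 89.9, 199 and 62.7 (2.04 ± 0.30, adjusted p = 0.00146). In all 3 genes every stem-gated sum lay above every B-gated sum, and the distance was smallest for Ifitm2, which lies beside Ifitm1.

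Among sensors and decay genes, Oasl2, an oligoadenylate synthetase-like protein, stood at 30.1, 23.9 and 27.6 against 1.80, 1.84 and 1.84 (3.81 ± 0.35, adjusted p = 1.2e-04). Ifih1, the long double-stranded RNA sensor MDA5, stood at 22.5, 21.6 and 37.1 against 2.88, 1.84 and 5.53 (2.84 ± 0.32, adjusted p = 3.8e-04). Oas1a, which makes the oligoadenylate that activates RNase L, stood at 15.1, 7.59 and 10.4 against 3.71, 0 and 3.69 (2.03 ± 0.49, adjusted p = 0.0169). Stem-gated sums of these 3 genes all exceeded the B-gated sums. Ddx58, the sensor RIG-I, stood at 40.8, 31.0 and 56.7 against 33.2, 7.36 and 73.8 and was not called (0.30 ± 0.37, adjusted p = 0.61), and the difference between Ddx58 and Ifih1 was not tested.

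The IFIT proteins bind foreign RNA and block its translation. Ifit1 stood at 10.5, 7.13 and 11.7 against 1.02, 0.92 and 0 (3.25 ± 0.51, adjusted p = 0.00199). Ifit2 stood at 18.0, 13.6 and 32.8 against 7.66, 0.92 and 9.22 (1.54 ± 0.39, adjusted p = 0.0205). Both were higher in stem-gated cells of all 3 sources. Rsad2, which encodes viperin, stood at 9.64, 12.3 and 5.94 against 0.78, 0 and 0 (3.75 ± 0.57, adjusted p = 0.00177). Ifi44 stood at 11.2, 7.11 and 13.5 against 0.98, 0 and 0 (3.63 ± 0.55, adjusted p = 0.00171). For Ifit1, Rsad2, Ifi44 and Oas1a at least 1 B-gated sum held no UMI, so these fitted fold changes depend on the prior count.

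Isg15, a ubiquitin-like protein that is attached to other proteins, stood at 24.7, 17.3 and 24.5 against 8.39, 4.60 and 3.69 (1.64 ± 0.33, adjusted p = 0.00646). Irf7 stood at 13.6, 7.57 and 13.9 against 3.12, 0.92 and 9.22 (1.69 ± 0.45, adjusted p = 0.0237). Rtp4, an interferon-induced receptor-transporting protein, stood at 39.0, 23.4 and 31.6 against 10.5, 7.36 and 14.8 (1.49 ± 0.28, adjusted p = 0.00482). All 3 genes were higher in stem-gated cells of every source. Bst2, which encodes tetherin, stood at 99.4, 106 and 110 against 38.6, 58.0 and 38.7 (1.08 ± 0.21, adjusted p = 0.00628). Gbp7, a guanylate-binding GTPase, stood at 62.6, 59.4 and 80.4 against 45.5, 20.2 and 25.8 (0.94 ± 0.29, adjusted p = 0.0424). Xaf1, a pro-apoptotic factor, stood at 25.2, 19.5 and 49.3 against 14.4, 9.20 and 22.1 (0.81 ± 0.25, adjusted p = 0.0445). Gbp7 and Xaf1 lay close to the threshold. Without the pool 11 members were called, and the calls of Ifit1, Isg15, Irf7, Oas1a, Bst2, Xaf1 and Rtp4 were lost.

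Ly6e and Ifi27l2a went the other way. Ly6e stood at 183, 165 and 196 against 683, 854 and 992 in B-gated cells (-2.35 ± 0.16, edgeR adjusted p = 2.7e-05), with no overlap. Ifi27l2a, a small interferon-induced protein, stood at 25.7, 4.90 and 16.8 against 220, 17.5 and 136 (-2.90 ± 0.29, adjusted p = 1.8e-04), lower in stem-gated cells of each source although the level at E19 was far below that of the other sources in both classes. The 13 members not called ranged from -1.86 for Zbp1 (adjusted p = 0.063) to 0.88 for Gbp2 (adjusted p = 0.157). Irf9, the DNA-binding partner of Stat2, stood just outside the threshold at 0.72 ± 0.24 (adjusted p = 0.059), and Stat2 at 0.01 ± 0.32 (adjusted p = 0.98).

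**Figure D2:**
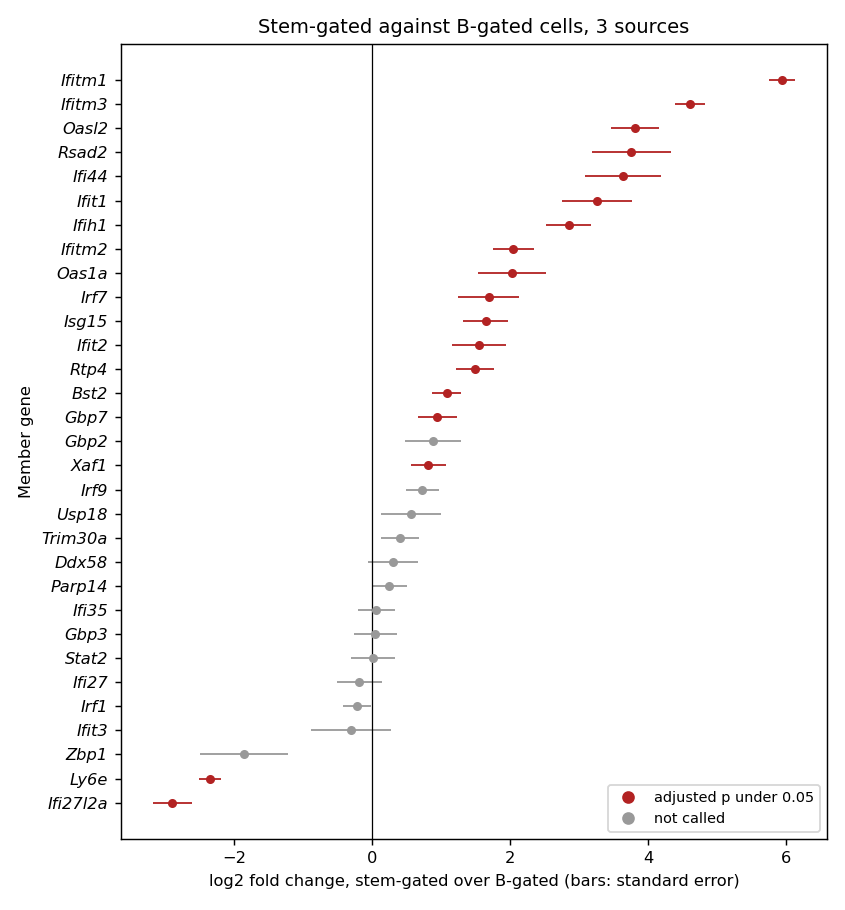
log2 fold change of 31 members in stem-gated over B-gated cells with its standard error, from 3 sources. Red points have an adjusted p under 0.05: 16 lie right of 0, led by Ifitm1 at 5.94, and 2 lie left of it, Ly6e at -2.35 and Ifi27l2a at -2.90.

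At E19 most members stood below P2 in stem-gated cells, by small steps. Of 29 members with a mean of at least 5 CPM over the 8 sums, 21 were lower at E19 than in every one of the 7 P2 sums and 1, Rsad2, was higher than in all of them. Over all 10598 genes with that mean, 28.9% were below and 12.7% above every P2 sum. The median log2 ratio of E19 to the mean of the P2 sums was -0.79 over the members and -0.16 over all genes. None of the 29 members lay 2-fold or more below every P2 sum, which 0.604% of all genes did, and none 2-fold above, which 0.5% did. E19 is 1 library in its own batch, so there is no test, and age, batch and tissue cannot be told apart. Ifit3, Ifit3b and Zbp1 were under the mean of 5, with 0.48, 0.16 and 0.75 CPM at E19. Usp18 and Ifi27l2a, at 3.55 and 4.90 CPM at E19, passed that mean through their P2 sums. The shares of all genes used the same filter.

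Summed over the 28 members outside the IFITM and LY6 families, stem-gated cells held 630 CPM at E19. The same sum was 761, 812 and 954 in spleen, bone marrow and liver of the pool, 981 and 1031 in spleen and bone marrow of pup 1, and 1286 and 1403 in those of pup 2. E19 was lowest, the pool next and pup 2 highest, so the P2 sums differed among themselves by more than E19 differed from the lowest of them. Sums of a single source lay next to each other in this order.

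The transcription factors among the members were all lower at E19 than in every P2 sum. Pathway factors outside the members did not all follow, since Irf2, Irf2bp2, Irf5, Irf8 and Stat3 lay inside their P2 ranges. Irf7 stood at 7.57 CPM at E19, with a lowest, median and highest P2 sum of 12.0, 17.6 and 34.8. Stat2 stood at 14.2 against 15.4, 27.7 and 33.4. Irf9 stood at 32.3 against 35.8, 49.9 and 60.8, and Irf1, which also answers interferon gamma, at 30.7 against 35.3, 47.3 and 55.1. For Irf7 the E19 level was 0.43 of the P2 median, and for the other 3 between 0.51 and 0.65 of it. The lowest P2 sum of each was a sum of the pool.

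The ubiquitin-like modifier pair was lower too. Isg15 stood at 17.3 at E19 against a lowest, median and highest P2 sum of 21.9, 29.5 and 58.8. Usp18, which removes Isg15 from proteins and damps the type I receptor, stood at 3.55 against 5.38, 7.47 and 10.1. The lowest P2 sum was 1.27 times the E19 level for Isg15 and 1.52 times for Usp18.

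Sensors and RNA decay genes were mixed in how far they lay from P2. Ddx58 stood at 31.0 at E19 against 38.7, 56.9 and 73.7, and Oasl2 at 23.9 against 27.5, 29.3 and 53.5. Oas1a stood at 7.59 against 8.35, 14.9 and 19.0. Ifih1 stood at 21.6 and overlapped P2, whose lowest sum, pool spleen, was 20.3 and whose median was 36.6. Of the IFIT genes, Ifit2 stood at 13.6 against 17.7, 27.3 and 32.9, while Ifit1 at 7.13 lay just above the lowest P2 sum of 7.03 in pup 1 bone marrow, which rests on 16 UMIs.

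Of 6 antiviral effectors, 3 were below every P2 sum. Xaf1 stood at 19.5 at E19 against 24.4, 48.8 and 73.7, Rtp4 at 23.4 against 29.9, 40.3 and 66.6, and Parp14, a mono-ADP-ribosyltransferase, at 31.2 against 44.3, 53.2 and 64.2. Bst2 at 106 lay inside the P2 range of 87.5 to 169. Trim30a at 67.9 lay above pool spleen at 59.1 and below the other sums. Rsad2 was above every P2 sum, with 12.3 at E19 against 3.52, 8.99 and 11.6. The pool liver value of Rsad2 rests on 23 UMIs and its interval of 7.34 to 17.4 holds the E19 value.

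All 4 IFI and all 3 GBP members were lower. Ifi27l2a stood at 4.90 at E19 against 7.91, 23.4 and 31.2 at P2, which is 0.21 of the P2 median, and it was 2-fold or more below each sum of the pool. Ifi27 stood at 40.2 against 63.9, 81.0 and 152, Ifi44 at 7.11 against 9.47, 17.1 and 33.4, and Ifi35 at 29.9 against 33.6, 39.0 and 48.3. Gbp2 stood at 8.96 against 10.1, 19.2 and 24.6, Gbp3 at 7.73 against 11.6, 15.9 and 22.9, and Gbp7 at 59.4 against 60.7, 79.1 and 96.3. Gbp7 lay nearest to its P2 range.

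The IFITM members overlapped P2. Ifitm1 stood at 1032 at E19, inside the P2 range of 603 to 1258, Ifitm2 at 463 inside 412 to 579, and Ifitm3 at 510 inside 416 to 732. In each of these 3 genes pup 1 was lowest and a pool sum highest. Ly6e was lower at E19 with 165 against 180, 190 and 229.

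**Figure D3:**
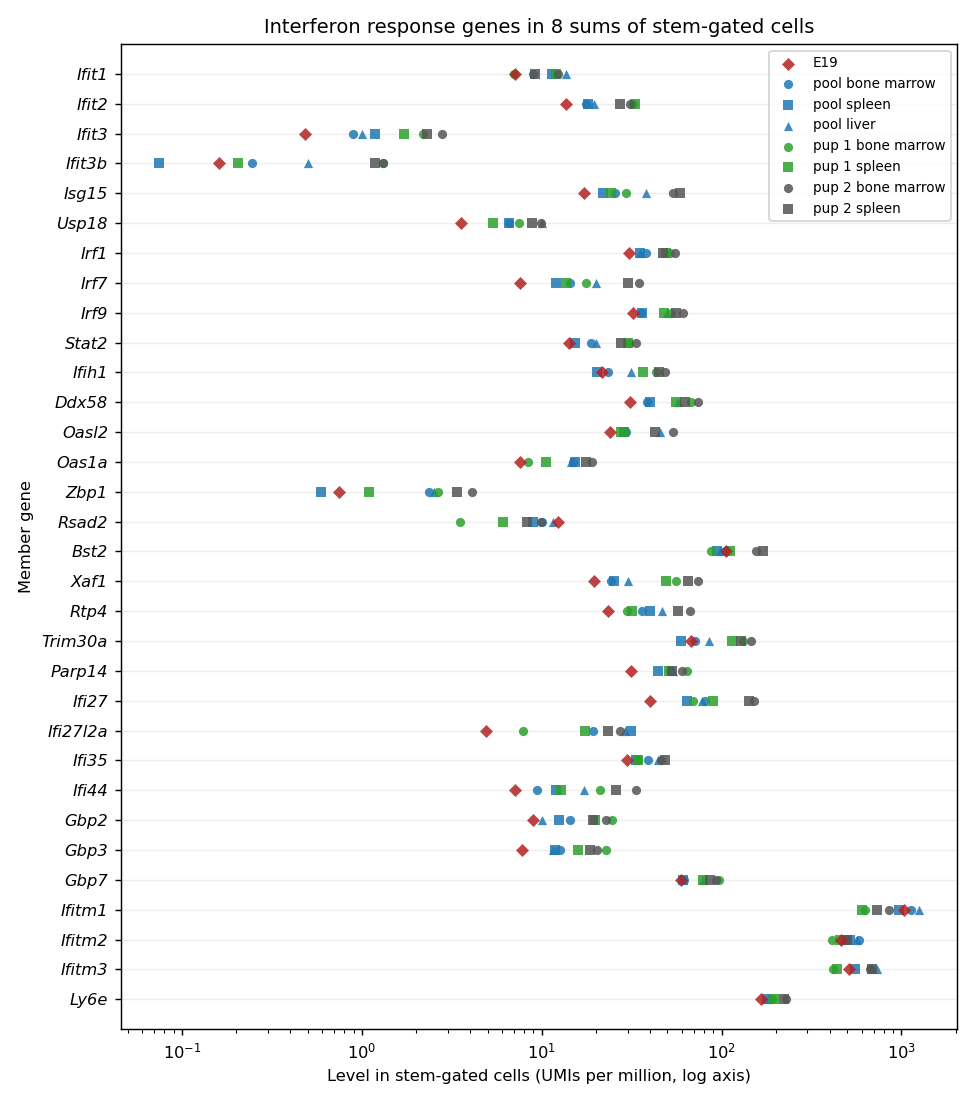
Level of each of the 32 members in 8 sums of stem-gated cells, on a log axis of CPM. The E19 diamond lies left of every P2 symbol for 21 of the 29 members with a mean of at least 5, at the right end for Rsad2, and inside the P2 symbols for Ifitm1, Ifitm2 and Ifitm3.

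Other measures also differed between E19 and P2 in the same sums, and some of them between the P2 batches. Markers of mitosis (Mki67, Top2a and 4 others) summed to 787 CPM at E19 and 1367 to 2618 in the P2 sums. Without cells holding a Mki67 or Top2a UMI, 23 of 29 members were below every P2 sum, against 19.4% of 10788 genes. Erythroid markers summed to 918 at E19, 405 to 475 in the pool and 6.45 to 22.9 in the pups. Stem markers, which the gate used, summed to 3554 at E19 and 2063 to 3477 at P2. T and NK markers summed to 10.3 at E19 and 23.7 to 41.8 at P2. The part of erythroid, T and NK transcripts in the member levels was not tested. With P2 limited to the 3 pool sums, 24 members were below every sum against 38.5% of all genes, 2 above (Rsad2 and Bst2) against 30.1%, and 1, Ifi27l2a, 2-fold below against 1.27%.

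The same direction was seen in erythroid-gated cells, where 18 of 19 members with the same mean were lower at E19 than in all 3 tissues of the pool and 13 were 2-fold or more lower. Over all 8657 genes these shares were 47.8% and 2.44%, and no member was above all 3 tissues, where 26.8% of genes were. The 13 were Ifit2, Isg15, Irf7, Ifih1, Rsad2, Xaf1, Trim30a, Parp14, Ifi27, Gbp7, Ifitm1, Ifitm2 and Ifitm3. Isg15 stood at 1.44 CPM in E19 erythroid-gated cells and at 18.1, 9.65 and 9.84 in those of pool bone marrow, liver and spleen. Ifitm3 stood at 11.6 against 47.2, 66.1 and 43.8, and Ifi27 at 18.7 against 51.1, 61.3 and 56.5. In B-gated cells 13 of 21 members were lower at E19 than in each pool tissue (34.7% of all genes), 4 of them 2-fold or more (Ifit2, Ifi27l2a, Gbp2 and Gbp7, against 5.18% of all genes), and 3 were higher: Bst2, Ifitm2 and Ly6e (29.4% of all genes). The E19 B-gated sum rests on 134 cells. Ifit2 and Gbp2 rest there on 1 UMI each and Isg15 on 5 UMIs, so their distances from the pool are uncertain. These comparisons within other classes were added after the data were seen. Their mean was taken over the E19 sum and the 3 pool sums. A member low at E19 could thus pass through the pool alone, as Isg15 did in erythroid-gated cells. The shares of all genes used the same filter.

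Between P2 bone marrow and spleen no member was called in stem-gated cells. The fit used 6 sums from the pool and both pups, with source as a block, and called 8 of 13861 genes (0.0577%), 7 higher (0.0505%) and 1 lower (0.00721%) in bone marrow. None of the 32 members passed in edgeR or in DESeq2, with 1 and 2 at an unadjusted p under 0.05. Members ranged from -0.39 for Ifi27l2a to 0.79 ± 0.34 for Zbp1 (edgeR adjusted p = 0.58), and 23 of 32 were above 0. The median was 0.06 over the members and -0.01 over all genes. Ifitm1 stood at 1131, 623 and 853 CPM in bone marrow of the pool, pup 1 and pup 2 and at 970, 603 and 736 in spleen (0.10 ± 0.09, adjusted p = 0.81). Ifitm3 stood at 681, 416 and 666 against 551, 440 and 690 (-0.01 ± 0.10, adjusted p = 0.99), and Ifitm2 at 579, 412 and 492 against 520, 454 and 499 (-0.07 ± 0.09, adjusted p = 0.88). For Ifitm2 and Ifitm3 the pool and the pups went in opposite directions. Ly6e stood at 187, 190 and 229 against 180, 196 and 221 (-0.04 ± 0.08, adjusted p = 0.92), and Bst2 at 105, 87.5 and 156 against 94.4, 112 and 169 (-0.15 ± 0.09, adjusted p = 0.71). Without the pool, Ifi44 was called higher in bone marrow (0.39, adjusted p = 0.036) and Bst2 lower (-0.25, adjusted p = 0.032), in a fit on the 2 pups that called 1275 genes.

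Stem-gated cells of the pool liver stood above those of both other tissues for 20 of 29 members and below both for 4 (Irf1, Oas1a, Gbp2 and Gbp3). Over all 10453 genes, 50.2% were above and 27.9% below. None of the 29 lay 2-fold from both tissues, which 0.727% of all genes did above and 0.21% below. The liver sum rests on 220 cells. Markers of other classes were higher in it too. In liver, bone marrow and spleen, megakaryocyte markers summed to 130, 35 and 36 CPM and T and NK markers to 41.8, 28.6 and 28.8. Neutrophil markers summed to 24.7, 6.69 and 5.87, and mast and basophil markers to 21.2, 5.39 and 7.80. Their part in the member levels was not tested. Isg15 stood at 37.8 in liver against 25.7 in bone marrow and 21.9 in spleen, and Ifi44 at 17.1 against 9.47 and 12.0. Oasl2 stood at 45.3 against 29.3 and 28.6, and Ddx58 at 56.9 against 38.7 and 40.3. The 5 highest members lay closer together. Ifitm1 stood at 1258, 1131 and 970 in liver, bone marrow and spleen, Ifitm3 at 732, 681 and 551, and Ifitm2 at 569, 579 and 520. Ly6e stood at 182, 187 and 180 and Bst2 at 98.2, 105 and 94.4, both between the other tissues in liver. In B-gated cells of the liver Isg15 stood at 12.2 against 6.0 and 5.9, 2-fold or more above both, as did 0.444% of all genes. There 5 of 22 members were above both tissues, against 37.8% of all genes, and 1, Ifitm1, was below both, against 10.7%.

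Pup 2 held more of the response than pup 1 at the same age, genotype and treatment. In stem-gated tdTomato-negative cells 19 of 29 members were higher in both tissues of pup 2 than in both of pup 1 and 1, Ifit2, was lower, where 18.8% and 31.8% of 10621 genes did so. Ifi27 stood at 152 and 142 CPM in bone marrow and spleen of pup 2 and at 69.5 and 89.1 in pup 1. Irf7 stood at 34.8 and 30.0 against 17.6 and 13.6, and Rtp4 at 66.6 and 57.5 against 29.9 and 31.7. Isg15 stood at 53.7 and 58.8 against 29.5 and 24.2. None of the 29 members lay 2-fold above both sums of pup 1 (0.113% of all genes did). These are 2 animals, and their tdTomato-negative cells were in different tubes. Neutrophil markers summed to 73.0 and 75.3 CPM in bone marrow and spleen of pup 1 and to 6.43 and 6.88 in pup 2, and erythroid markers to 22.9 and 22.9 against 7.93 and 6.45. Their part in the difference was not tested. Pup bone marrow and spleen together lay above pool bone marrow and spleen for 13 of 29 members, close to the 49.5% of all genes that did. Ifitm1 and Ifitm2 lay below, as did 11.1% of all genes.

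Between tdTomato-positive and tdTomato-negative stem-gated cells 1 of 31 members tested was called. The fit used 4 sums with pup as a block and called 112 of 13800 genes higher (0.812%) and 446 lower (3.23%), 4.04% in all. The members' count lies near these shares of all genes. Positive sums held 33 cells of pup 1 and 29 of pup 2. Ifitm2 stood at 366 CPM in positive and 451 in negative cells of pup 1 and at 450 and 495 in pup 2 (-0.33 ± 0.09, edgeR adjusted p = 0.0116). Positive cells were lower in both pups, but the positive level of pup 2 lay next to the negative level of pup 1. DESeq2 gave an adjusted p of 0.80 for Ifitm2, upper quartile scaling 0.088, the fit without the pup block 0.345 and a stricter stem gate 0.177. Ifitm1 stood at 772 against 604 in pup 1 and 1008 against 805 in pup 2 and was not called (0.22 ± 0.08, adjusted p = 0.068). It was called with upper quartile scaling (adjusted p = 0.0133), without doublet removal (0.0312) and with the stricter gate (0.0196). Ifitm3 stood at 583 against 438 and 780 against 676 (0.19 ± 0.08, adjusted p = 0.245). Ly6e stood at 198 against 196 and 253 against 226 (-0.02 ± 0.11, adjusted p = 0.98), and Bst2 at 97.9 against 110 and 149 against 161 (-0.25 ± 0.14, adjusted p = 0.46). Mitosis markers moved with the label, at 733 and 1155 CPM in positive and 2212 and 2112 in negative cells of pups 1 and 2. Neutrophil markers moved with the tube, at 6.53 and 98.7 in positive and 75.1 and 6.61 in negative cells. The part of either list was not tested.

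Single cells were compared at equal depth. Each cell was thinned to 5000 UMIs, and cells with UMIs of at least 3 of the 28 members outside the IFITM and LY6 families were counted. The share in stem-gated cells was 44.3% at E19 (exact binomial 95% interval 43.0 to 45.6, 5986 cells). It was 58.6% in pool bone marrow (55.8 to 61.3, 1256 cells), 56.2% in spleen (53.6 to 58.8, 1414) and 65.3% in liver (58.3 to 71.9, 199). In pup 1 it was 74.0% in bone marrow (64.3 to 82.3, 100 cells) and 74.4% in spleen (71.8 to 76.9, 1156). In pup 2 it was 88.2% (86.3 to 89.9, 1310) and 86.8% (84.2 to 89.1, 757). Intervals of bone marrow and spleen overlapped within each source, while those of E19, the pool and the 2 pups did not overlap between sources, other than pool liver with both sums of pup 1. Without thinning the shares were 58.7% at E19, 72.3% in pool bone marrow, 72.7% in spleen and 86.8% in liver. Thinning left out 2278 cells at E19, 581, 488 and 21 in pool bone marrow, spleen and liver, and at most 5 in each pup sum. These intervals cover counting error only.

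Erythroid-gated cells gave the lowest shares from the same libraries, at 17.0% in pool bone marrow (median depth 12895 UMIs before thinning, against 7387 in stem-gated cells), 14.9% in liver, 14.7% in spleen and 1.83% at E19. Myeloid progenitor-gated cells gave 22.2%, 22.8% and 19.0% in the pool and 6.82% of 44 cells at E19. B-gated cells gave 31.5% in bone marrow, 42.1% in liver, 37.4% in spleen and 13.6% of 88 cells at E19. E19 was thus lower than the pool in each of these classes. In myeloid progenitor-gated cells its exact interval (1.43 to 18.7%) overlapped that of pool spleen (16.2 to 22.1%).

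**Figure D4:**
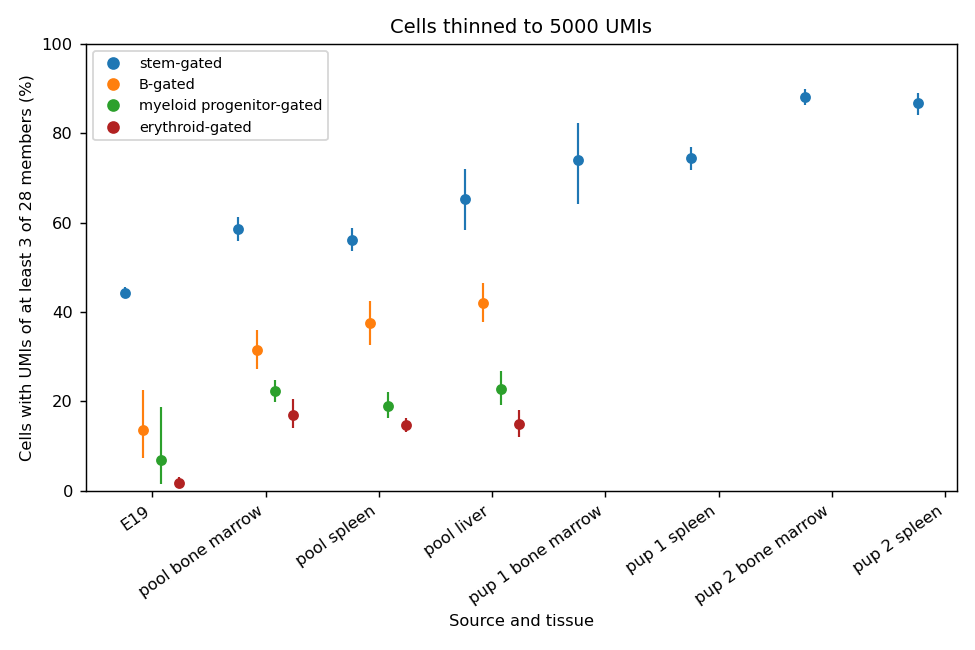
Share of cells with UMIs of at least 3 of 28 members after thinning to 5000 UMIs, for 4 cell classes in each source and tissue with at least 40 cells and bars are exact binomial 95% intervals. Stem-gated cells run from 44.3% at E19 to 88.2% in pup 2 bone marrow, and erythroid-gated cells lie lowest in every library shown with them.

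A few stem-gated cells held many members at once. Cells with at least 10 of the 28 members were 39 of 5986 at E19 (0.652%, exact interval 0.464 to 0.890), 14 of 1256 in pool bone marrow (1.11%), 5 of 1414 in spleen (0.354%) and 9 of 199 in liver (4.52%, 2.09 to 8.41). In pup 1 spleen they were 24 of 1156 (2.08%), and in pup 2 they were 107 of 1310 in bone marrow (8.17%) and 51 of 757 in spleen (6.74%). The highest count was 25 of 28 members in 1 cell at E19. These few cells carried much of some members. At E19 they held 40 of 200 Ifit1 UMIs, 23.3% of Ifi44 and 15.0% of Rsad2, but 2.47% of Irf1, 0.744% of Ifitm1 and 0.799% of Ly6e. In pup 1 spleen they held 65.8% of Ifit1 and 68.4% of Rsad2 UMIs and 3.00% of Ifitm1. The cells were picked by these members' own counts, so the shares describe them and carry no test.

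Cell-to-cell spread was measured as well. The variance over the mean of thinned counts was at least 1.5 in 4 of 28 members at E19 (Rsad2, Ifi44, Ifitm1 and Ifitm3) and in 3.66% of 10929 genes with a mean of at least 0.02. These shares of all genes were not matched to the members by level. Ifitm1 and Ifitm3 had means of 4.99 and 2.48 UMIs per thinned cell at E19, far above that limit. In pool bone marrow it was 4 of 29 (Ifit1, Rsad2, Ifitm1 and Ifitm3) against 2.45%, in spleen 5 of 29 against 2.35% and in liver 7 of 29 against 5.73%. In pup 1 bone marrow it was 6 of 28 against 5.78%, and in pup 2 it was 7 of 29 against 2.79% in bone marrow and 4 of 29 against 2.39% in spleen. One of the 6 in pup 1 bone marrow was Ifit1, on 2 UMIs in 100 cells. Ifit1 reached 9.45 and Rsad2 6.24 in pup 1 spleen, where 7 of 29 members and 2.88% of genes were over 1.5. Ifit1 counts there came to 79 UMIs over 1156 cells.

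Other genes of the pathway were counted in lists that do not include the members. Interferon ligands were nearly unseen: over the 160515294 UMIs of the 8 stem-gated sums, Ifnb1 had 1 UMI, Ifng 2 and Ifnk 20, and Ifna1, Ifna2, Ifna4, Ifnl2 and Ifnl3 had 0. A count of 0 allows up to 3 UMIs in that total, as a one-sided 95% limit. Of 8 receptors and kinases, 4 were lower at E19 than in every P2 sum (Ifnar1, Ifnar2, Ifngr2 and Il10rb) and none higher, where 28.9% of all genes were below and 12.7% above every P2 sum. Ifngr2, a chain of the interferon gamma receptor, was 2-fold or more lower, with 17.3 at E19 against 34.8, 43.9 and 51.7. Of 44 measured other interferon-induced genes, 28 were below every P2 sum and none above, against the same shares of all genes. Of these, Tgtp2, an interferon-inducible GTPase, was 2-fold or more below, with 2.48 against 6.28, 12.3 and 14.7. Of 7 signalling inhibitors 4 were below (Socs1, Ptpn6, Nlrc5 and Nlrc3) and 2 above (Ptpn2 and Pias1), with Pias1 at 119 against 78.6, 90.7 and 110. Of 6 nucleic acid sensing genes 3 were below (Mavs, Tmem173 and Cgas) and none above.

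In the test of stem-gated against B-gated cells, 12 of 51 other interferon-induced genes were higher and 6 lower, near the 16.7% and 8.72% of all genes. Oas3 (4.29 ± 0.60, edgeR adjusted p = 0.00115) and Iigp1 (4.01 ± 0.56, adjusted p = 0.00113) were among those higher, and Ifi209 (-6.61 ± 0.28, adjusted p = 2.3e-06) and Ifi30 (-5.34 ± 0.57, adjusted p = 2.9e-04) among those lower. Of 8 receptors and kinases Ifnar2 was higher (0.88 ± 0.19, adjusted p = 0.00912) and Ifngr2 lower (-1.05 ± 0.23, adjusted p = 0.00969). Of 7 transcription factors Stat3 was higher, and Irf5 and Irf8, factors of B and myeloid cells, lower. Cgas, the cytosolic DNA sensor, was higher (2.70 ± 0.29, adjusted p = 2.7e-04), and so was Dhx58, while Tlr7 was lower. Between P2 bone marrow and spleen no gene of any list was called. Between tdTomato-positive and tdTomato-negative cells 1 was, Samhd1, a dNTP hydrolase that limits retroviruses (0.50 ± 0.13, edgeR adjusted p = 0.0055). The lists hold 99 genes together, and this fit called 4.04% of 13800 genes, so a single call does not set the lists apart.

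Among 10569 genes outside the members, the 5 whose log2 levels over the 8 stem-gated sums were most like the summed level of the 28 members were Oas2 (Pearson r = 0.993), Gt(ROSA)26Sor (0.978), Eif2ak2 (0.977), Oasl1 (0.972) and Acsl3 (0.967). The 8 sums share sources and batches. Oas2 stood at 4.29 at E19 and reached 21.9 in bone marrow of pup 2.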

How the data were processed

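Mouse cells were profiled with 10x Genomics 3' chemistry, per the labels' protocols. The deposited matrices hold raw UMI counts per gene and barcode, made with Cell Ranger 7.0.0 (pool), 7.1.0 (E19) and 8.0.1 (tubes) per the file headers. Build mm10 and Cell Ranger 7.0.0 appear in the submitters' processing notes. No matrix of the 2 hashtag samples was analysed here. The libraries held 2838 to 11323 barcodes and 56010320 to 87254828 UMIs.

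Cells passed at least 2000 UMIs, 1000 genes and at most 10% mitochondrial UMIs, and the highest Scrublet scores (scanpy 1.11.5), 0.8% of barcodes for each 1000 barcodes, were removed. In the tubes a cell was assigned if a single hashtag passed its background (the 99th percentile among cells where a different hashtag leads) and reached 3 times the next. This assigned 2149 of 2660 and 1759 of 2411 cells. Classes were gated by 13 marker lists (at least 3 markers and 500 CPM, UMIs scaled to 1000000). The gate's cut-offs were chosen with the data in view, and 7 widely seen markers were not used. Between 1 and 49 stem-gated cells of each tdTomato-negative, pool or E19 sum lay between 500 and 600.

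Raw counts were summed per class, source and tissue and fitted with edgeR 4.0.16 (R 4.3.3; TMM, filterByExpr, glmQLFit, glmQLFTest, adjusted p under 0.05), tested on simulated data, with DESeq2 1.42.0 as an alternative. The SE of an edgeR value was derived as the absolute log2 fold change divided by the square root of its F statistic. It therefore depends on the prior count as the fold change does. Sources are blocks because bone marrow and spleen, or both sorts, came from the same animals. Replicates are sums of 1 pool and 2 pups. Positive and negative cells of a pup lay in different tubes. Comparisons with 1 sample a side give ranges, with no test. Intervals are exact Poisson or binomial at 95% (scipy 1.17.1). The members and lists were chosen with earlier results of these data known. All 32 members are named by role. In tests each member called is given in full, with the 5 of highest level. In ranges each member 2-fold apart is named, with the same 5, and at most 5 genes of a list are given by size. Other members with values were chosen after these were seen. The planned test against myeloid progenitor-gated cells had 2 of the 3 sources it needed and was not made. Promoters are from RefSeq (GRCm38.p6). One result on a gene of the pathway lists is not reported here.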

Additional observations from a re-analysis of the deposited data

Results flagged for a closer look

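In stem-gated cells, 10 of 29 members with a mean of at least 5 CPM differed between bone marrow and spleen in 1 direction in the pool and in the other in both pups. Over all 10588 genes with that mean 37.7% did so, so the members' count lies near that of all genes. The difference between sources was not tested, and several values are close to 0. As the TMM-scaled log2 ratio of bone marrow to spleen in the pool, pup 1 and pup 2, Bst2 stood at 0.091, -0.47 and -0.17, and Ddx58 stood at -0.12, 0.16 and 0.18. Gbp7 stood at -0.030, 0.16 and 0.061, and Ifi35 stood at 0.15, -0.13 and -0.12. Ifi44 stood at -0.40, 0.59 and 0.31, and Ifitm2 stood at 0.092, -0.26 and -0.069. Ifitm3 stood at 0.24, -0.20 and -0.10, and Irf9 stood at -0.074, 0.015 and 0.065. Usp18 stood at -0.063, 0.35 and 0.12, and Xaf1 stood at -0.10, 0.074 and 0.13.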

How the results depend on the processing

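The 16 higher and 2 lower members in stem-gated against B-gated cells were 11 to 20 called members over the other settings, with 11 to 20 when 1 source was left out, and the genes called were then 1364 to 4983. For bone marrow against spleen, the 8 genes called became 29 with DESeq2, 243 with no filter on low counts, 0 with no replicate block, 4 with the gate after thinning and 4 with hashtag background subtracted. Leaving out 1 source gave 0 to 1275 genes and 0 to 2 members (2 without the pool). For tdTomato the 558 genes called became 100 with DESeq2, 64 with no replicate block and 338 with hashtag background subtracted, and the 1 member became 0 with DESeq2, 0 with no replicate block and 2 without doublet removal. The pairing by pup or pool comes from the labels. The fit of tdTomato without mitotic cells left under 20 positive cells and was not run, and leaving out a pup left no residual degrees of freedom.

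At E19 the 21 members below every P2 sum were 18 to 24 in every other setting, lowest with TMM factors. The share of all genes below was 28.9% in the main setting, 38.5% against the pool alone and 19.4% without mitotic cells. For the other settings, and for those of pool liver, that share is not given here. Whether those counts set the members apart from all genes is therefore not known. The 1 member above (Rsad2) became 0 with the gate after thinning, 0 without mitotic cells, 0 with the stricter gate and 2 against the pool alone, and members 2-fold below went from 0 to 1 without mitotic cells, to 1 with hashtag background subtracted and to 1 against the pool alone. In pool liver the 4 members below became 0 after thinning, 2 with the stricter gate and 7 with TMM factors, and 1 member was 2-fold above after thinning. Shares of cells with many members moved as depth and count set them: at 2500 UMIs they were 19.4% at E19 and 29.4%, 27.5% and 39.1% in pool bone marrow, spleen and liver, with at least 4 members 24.9%, 38.3%, 36.0% and 48.7%, and with no thinning 58.7%, 72.3%, 72.7% and 86.8%. E19 was lowest each time. Of the single members, 20 values lost a call under an alternative, 5 gained one and 0 reversed. The cause was not tested.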
